A study of Arabidopsis thaliana with 6 samples.

Results

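Genes that lie around the 5 centromeres of Arabidopsis thaliana and that gave almost no signal in wild-type rosettes were followed in a double mutant of 2 kinase genes. A gene was taken where its locus number lies in AT1G34000-AT1G47999, AT2G04000-AT2G13999, AT3G29000-AT3G44499, AT4G03500-AT4G10499 or AT5G27000-AT5G35999 and its mean log2 value over the wild-type arrays was under 4. This gave 980 genes out of 1488 measured in the 5 windows and out of 13286 measured in all. They are called silent here because of this level alone, since no detection calls were used. The same threshold applied outside the windows gave 3625 silent genes on the chromosome arms, which serve as the comparison.

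Rosette leaves of Columbia-0 (Col0) and of the double mutant at3g03940/at518190 -/- were compared on 3 arrays each. Plants of both genotypes were 21 days old, were kept well watered and had 12 h of light a day, and the arrays were hybridised with cRNA made from total RNA. The labels call the mutant plants knockdown as well as -/- and write the second locus without the letter g (read as AT5G18190). They give neither the alleles nor whether replicates came from separate plants. A p-value here thus reflects only how these RNA samples vary, and that variation may be technical. The values are RMA expression values on the log2 scale.

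In plants the chromatin beside centromeres is rich in transposons and their remains, and much of it is kept silent by methylated DNA and methylated histone H3. The targeted genes encode MLK1 and MLK2, relatives of a kinase that an alga needs to keep transgenes and transposons silent. The series title places the study in the phosphorylation of threonine 3 of histone H3 in pericentromeric regions. Loss of silencing would appear on the arrays as a rise of genes that are off in the wild type.

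MLK1 (AT5G18190) checked the genotype. Wild-type arrays read 7.92, 7.74 and 7.63, and double mutant arrays 3.42, 3.57 and 3.36. The lower values lie within the range of the silent genes. MLK2 was not analysed here. Of the rosette leaf markers drawn up for this work 1 of 8 was matched to a probe set here: RCA, the Rubisco activase, read 12.94 ± 0.05 and 13.54 ± 0.03 (SD, n = 3). The median over all probe sets ran from 5.81 to 5.90 across the 6 arrays. The control probe set against 25S rRNA read 5.45 to 6.81 in wild-type arrays, against 12.08 to 12.32 in mutant arrays, and the 5′ minus 3′ difference of the actin control was -4.09 to -3.98 against -3.47 to -3.29. The same difference was higher in the mutant for GAPDH, by 0.38, and went the other way for ubiquitin, with -0.19. Their part in the results below was not tested.

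The silent pericentromeric genes are mostly annotated pseudogenes. RefSeq lists 592 of the 980 as pseudogenes and 19 as transcribed pseudogenes, 62.3% in all, and the other 369 as protein coding. Of the silent arm genes 7.17% are annotated pseudogenes, and of the 508 genes in the windows that were not silent 12.8%. The chromosome 2 window holds 240 of the genes, the chromosome 3 window 221, the chromosome 4 window 199, the chromosome 1 window 198 and the chromosome 5 window 122. Most sit at the floor of the array: 809 of the 980 (82.6%) read below the lower quartile of all probe sets on each of the 6 arrays, against 66.1% of the silent arm genes. The median wild-type level was 3.18 against 3.36 on the arms. The silent pericentromeric genes are thus dimmer than the arm genes they are set beside, and comparisons within bands of equal level are given for that reason.

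As a group these genes stayed at the floor in the double mutant. Wild-type arrays had median levels of 3.21, 3.16 and 3.13 for these genes, and double mutant arrays 3.07, 3.12 and 3.18. The arrays of the genotypes overlap, and the lowest median belongs to a double mutant array. Over genes the median difference, double mutant minus wild type, was -0.027, with quartiles of -0.12 and 0.055. For silent arm genes the median difference was 0.0016 (quartiles -0.11 and 0.12), and for all 13286 genes it was -0.010. In bulk tissue, fewer cells of a type and less RNA per cell cannot be told apart.

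Few silent pericentromeric genes rose. At a limma adjusted p of 0.05, 22 of 980 (2.24%) were higher in the double mutant, 53 (5.41%) were lower and 905 did not pass. Over all 22746 probe sets 19.8% were called higher and 18.7% lower. Of the silent arm genes 303 of 3625 (8.36%) were called higher and 178 (4.91%) lower. The share called higher was thus lower than that of the arm genes, a difference of -6.11 percentage points; the difference between the shares was not tested. Rises on the arms were denser in AT5G40450-AT5G55000 on chromosome 5 (17.1% of 246), and without that interval, which was picked after its values were seen, the arm share was 7.72%. The 3 double mutant arrays lay above the 3 wild-type arrays for 82 of the 980 genes (8.37%), against a background of 25.1% of probe sets. They lay below them for 135 (13.8%), against 24.5%. Among the silent arm genes the shares were 15.0% above and 12.0% below. The 22 rises were small: 18 were under 0.5 on the log2 scale, and the median rise was 0.39. All these calls are relative to the authors' scaling; with each array centred on its own median, 14 were called higher and 81 lower.

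A rise of at least 1 on the log2 scale was seen for 1 gene, AT1G47400. Over all probe sets 4.35% rose by that much, and among the silent arm genes 39 of 3625 (1.08%) did. No silent pericentromeric gene fell by 1 or more with limma, also at an unadjusted p under 0.05, and none of the 3625 silent arm genes did. Over all probe sets 2.75% fell by that much at an adjusted p under 0.05. A gene at the floor has little room to fall. In the histogram of differences the pericentromeric genes form a single narrow peak, while the arm genes have a tail to the right.

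**Figure D1:**
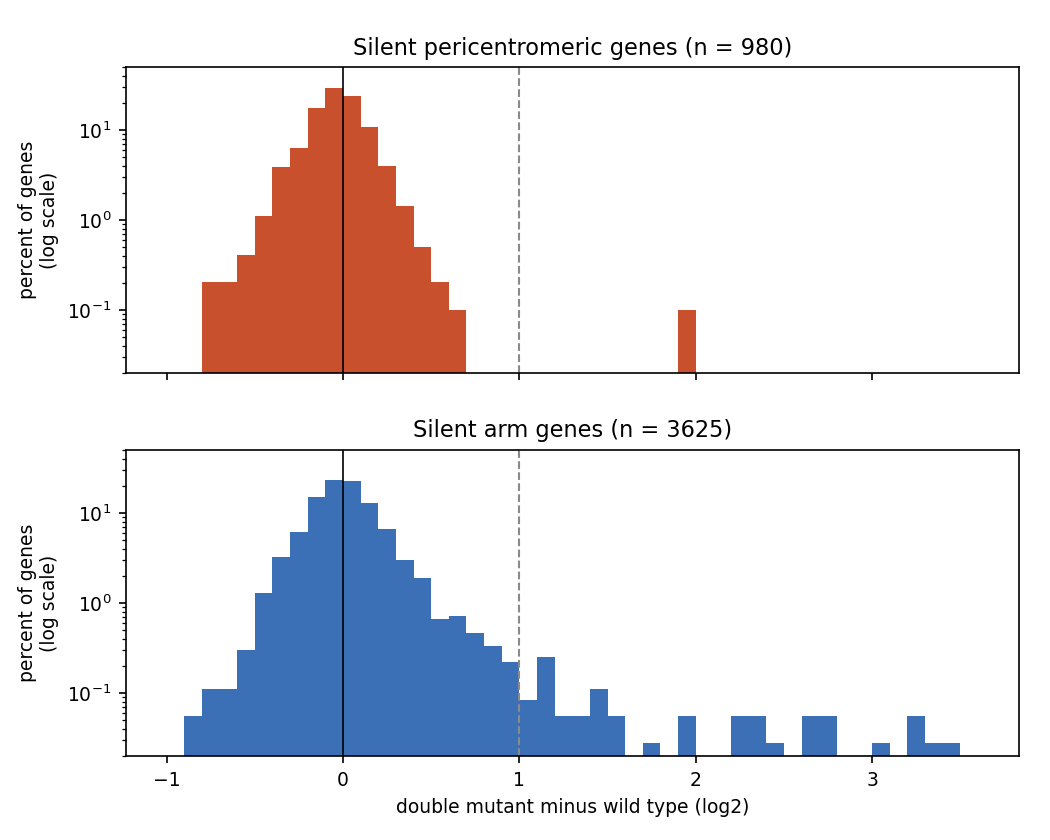
Histograms of the difference, double mutant minus wild type (x axis, log2), for 980 silent pericentromeric genes (top) and 3625 silent arm genes (bottom); the y axis is the percent of genes per bin on a log scale, and the dashed line marks a rise of 1. Beyond that line lie 1 pericentromeric gene, at 1.96, and a tail of arm genes that reaches 3.498.

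The rule used the wild-type values, so a difference from the wild type is not wholly independent of it. The silent genes were therefore also chosen on 1 wild-type array alone, at the same threshold, and the double mutant was compared with the other 2 wild-type arrays. Chosen on wild-type array 1, 16 of 969 pericentromeric genes were called higher (1.65%, against 8.06% of silent arm genes). Chosen on array 2 it was 24 of 983 (2.44%, against 8.20%), and chosen on array 3 it was 12 of 996, against 6.62% of silent arm genes. In each of the 3 choices the share of rises among pericentromeric genes was below that of the arm genes.

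The threshold of 4 can be crossed in both directions. Of the window genes 980 averaged under 4 in wild-type arrays and 1000 in double mutant arrays. Only in the wild type were 14 genes under it, 6 of them called higher, and only in the double mutant 34, of which 13 were called lower. On the arms 261 genes were under 4 in the wild type only and 269 in the double mutant only. A level of 5 or more in the double mutant was reached by 1 of the 980 genes and by 25 of the 3625 arm genes. Just inside the threshold lay AT4G03600, AT1G47400 and AT2G07240, with wild-type means of 3.996, 3.990 and 3.988. Just outside it lay AT5G34900, AT1G44085 and AT3G32160, with means of 4.0003, 4.0005 and 4.007. The single gene with a large rise was therefore also among the genes closest to the threshold.

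Shares called higher were also counted within annotation types and bands of the wild-type level; the differences between these shares were not tested. Of protein-coding genes 13 of 369 (3.52%) were called higher in the windows and 293 of 3361 (8.72%) on the arms. Of annotated pseudogenes 9 of 611 (1.47%) were called higher in the windows and 10 of 260 (3.85%) on the arms. Among protein-coding genes with a wild-type mean of 3.5 to 4 the shares were 5.94% and 11.8%, and at 3 to 3.5 they were 3.63% and 7.74%. Under 3, none of 75 coding pericentromeric genes was called with limma (3 were higher and 2 lower at an unadjusted p under 0.05), and 16 of 453 on the arms (3.53%) were called higher. For pseudogenes at 3 to 3.5 the shares were nearly equal, 2.51% and 2.54%. The other pseudogene bands hold few calls: 1 of 256 in the windows and 1 of 79 on the arms under 3, and 2 of 116 and 6 of 63 at 3.5 to 4.

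Among the falls, pseudogenes had the higher shares in both locations. At a wild-type mean of 3.5 to 4, 17.2% of the pericentromeric pseudogenes and 15.9% of the arm pseudogenes were called lower, against 9.90% and 8.20% of the coding genes. These differences were not tested either.

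**Figure D2:**
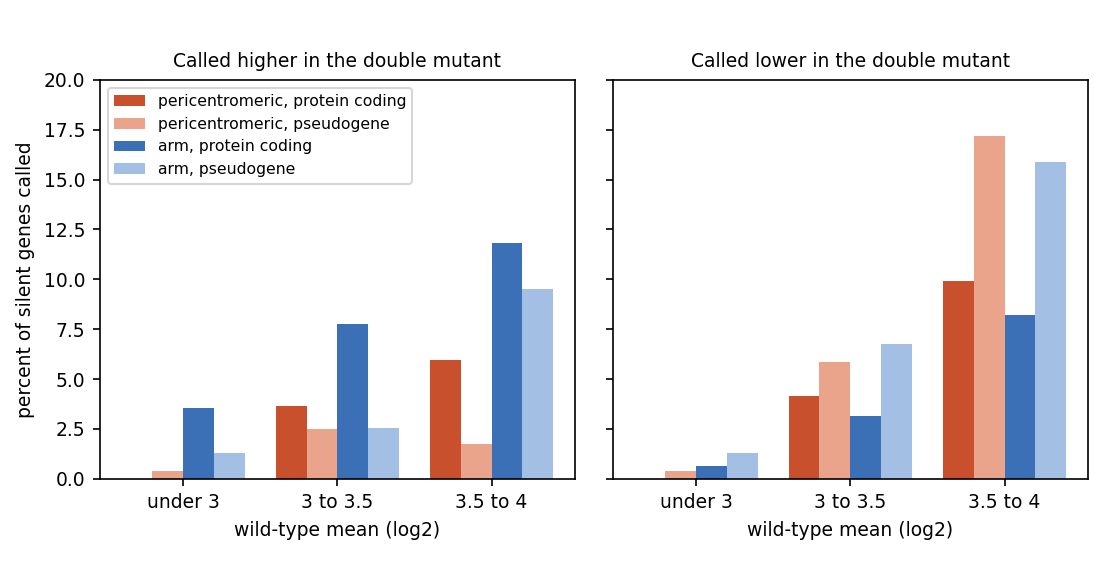
Percent of silent genes called higher (left) and lower (right) in the double mutant by limma (adjusted p under 0.05), by band of the wild-type mean (log2); bar colours separate pericentromeric from arm genes and coding genes from annotated pseudogenes. On the left the coding arm genes stand highest in each band, with 11.8% at 3.5 to 4; on the right the pseudogenes of both locations stand highest at 3.5 to 4.

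Each of the 5 windows held called rises, with the largest share on chromosome 1, but each share was below that of silent arm genes of its chromosome. Those arm shares were 7.9%, 8.47%, 6.1%, 8.47% and 10.8% for chromosomes 1 to 5. Over all probe sets 19.8% were called higher and 18.7% lower. Chromosome 1 had 10 of 198 genes called higher (5.05%) and as many lower. Chromosome 2 had 2 of 240 higher (0.833%) and 9 lower, and chromosome 3 had 2 of 221 higher (0.905%) and 15 lower. Chromosome 4 had 4 of 199 higher (2.01%) and 11 lower, and chromosome 5 had 4 of 122 higher (3.28%) and 8 lower. The differences between the windows were not tested. In each window the median difference was below 0, from -0.018 on chromosome 1 to -0.054 on chromosome 3. Each window was also split by locus order into a first, a middle and a last stretch of like gene number. These stretches held 9, 6 and 7 genes called higher (2.74%, 1.83% and 2.15%). They held 10, 23 and 20 called lower (3.05%, 7.03% and 6.15%). The middle stretch thus did not hold more rises than the outer ones, and the differences between the stretches were not tested. None of the 22 rises had a called rise as its nearest silent gene by locus number. AT1G35210 and AT1G35320 were the 1 pair that followed each other in the order. With 2.24% of the 980 genes called higher few such pairs could occur, so whether rises run in blocks cannot be told from this. Among the falls AT4G07350 and AT4G07360 were such a pair.

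**Figure D3:**
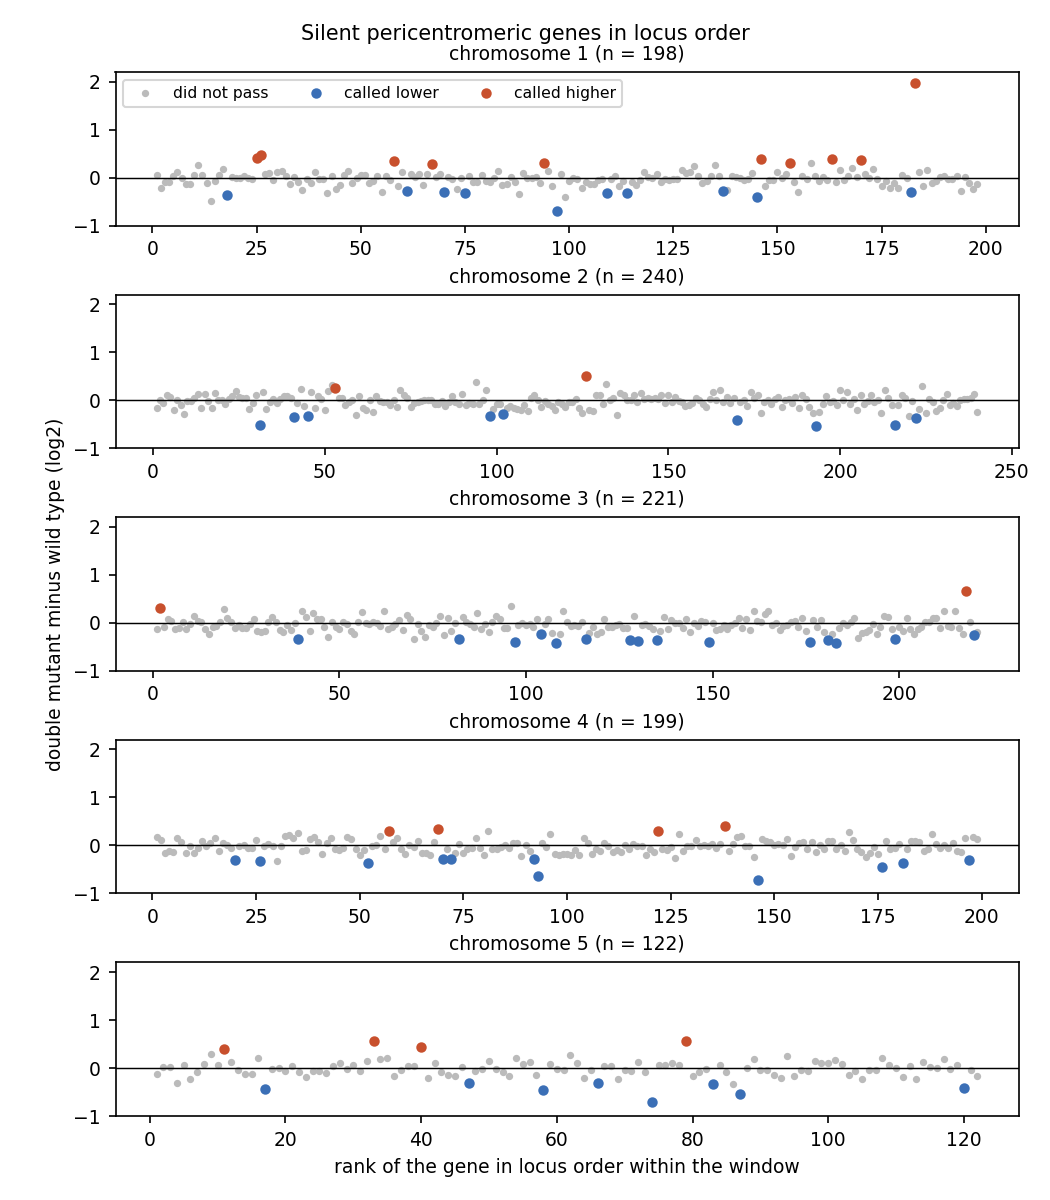
Difference, double mutant minus wild type (y axis, log2), of each silent pericentromeric gene against its rank in locus order within its window, 1 panel per chromosome; red points were called higher, blue points lower and grey points did not pass. The points lie along 0 in the 5 panels, with AT1G47400 at 1.96 near the end of the chromosome 1 window.

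AT1G47400, a protein-coding gene at the right end of the chromosome 1 window, stood apart from all the others. It read 4.27, 3.70 and 3.99 in the wild type and 6.03, 6.004 and 5.83 in the double mutant. The lowest double mutant array lay well above the highest wild-type array. With n = 3 the mean rose from 3.99 ± 0.28 to 5.95 ± 0.11 (SD). This is 1.96 (SE 0.14) on the log2 scale, or 3.90-fold, at a limma adjusted p of 1.1e-06. By exact permutation of the 6 arrays p was 0.1, the smallest that 3 arrays against 3 allow. With 1 array left out the difference was 1.82 to 2.103 and the call held each time. The nearest silent gene, AT1G47370, was called lower, by 0.29. The largest rises of silent arm genes were higher still: AT5G39580 rose by at least 3.498, AT5G26260 by at least 3.31 and BGLU45, a beta-glucosidase, by at least 3.29.

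The other rises of the silent pericentromeric genes were 0.65 or less. AT3G44400, protein coding, read 2.80, 3.24 and 3.02 in the wild type and 3.90, 3.497 and 3.63 in the double mutant, a rise of 0.65 (SE 0.13, limma adjusted p = 0.0026). The arrays did not overlap, and all 6 were under 4. The pseudogene AT5G28430 read 3.24, 3.21 and 3.08 against 4.03, 3.54 and 3.66, a rise of 0.56 (SE 0.13, limma adjusted p = 0.0045). Its probe set carries the suffix s, which Affymetrix gives to sets that can match several transcripts. The transcribed pseudogene AT5G33350 read 3.33, 3.59 and 3.51 against 3.83, 4.03 and 4.24, a rise of 0.56 (SE 0.12, limma adjusted p = 0.0034). These 3 genes were below the lower quartile of every wild-type array. AT3G44400 and AT5G28430 were also below it in double mutant replicates 2 and 3, so no fold is given for them. AT5G33350 was above it in every double mutant array, so its rise is a lower bound, at least 1.47-fold.

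AT1G35320 and AT5G28580 rose from just under the threshold. AT1G35320, protein coding, read 3.91, 3.79 and 3.86 in the wild type and 4.27, 4.20 and 4.53 in the double mutant, a rise of 0.48 (SE 0.10, limma adjusted p = 0.0039). The pseudogene AT5G28580 read 4.08, 3.95 and 3.84 against 4.34, 4.38 and 4.46, a rise of 0.44 (SE 0.10, limma adjusted p = 0.0038). With AT1G47400, AT3G44400, AT5G28430 and AT5G33350 these are the 6 of the 22 called rises that passed in each of the 6 fits that left out 1 array. Leaving out wild-type replicate 1, 2 or 3 gave 20, 24 or 12 genes called higher, and leaving out double mutant replicate 1, 2 or 3 gave 21, 13 or 9.

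Each of the remaining 9 named rises lost its call in some of these fits, and none changed direction. AT2G07705, the largest rise of the chromosome 2 window, read 3.54, 3.94 and 3.76 against 4.11, 4.04 and 4.58, a rise of 0.49 (limma adjusted p = 0.023); without wild-type replicate 1 or double mutant replicate 3 the difference was 0.39 (adjusted p = 0.078) and 0.33 (adjusted p = 0.087), and without wild-type replicate 3 it was 0.50 (adjusted p = 0.05). It lies in the stretch of chromosome 2 that carries a copy of mitochondrial DNA. There 19 of the silent genes were measured, and it was the 1 called among them (5.26%). Over all 980 genes 2.24% were called higher, and over all probe sets 19.8%. AT4G08140, the largest rise of the chromosome 4 window, read 3.21, 3.15 and 2.85 against 3.32, 3.54 and 3.55, a rise of 0.40. Its limma adjusted p was 0.019, and 0.068, 0.076 and 0.072 without wild-type replicate 3 and double mutant replicates 2 and 3. On chromosome 1, AT1G35210 rose by 0.40 and AT1G44160 by 0.39. The limma adjusted p of AT1G35210 was 0.058, 0.065 and 0.065 without wild-type replicate 3 and double mutant replicates 1 and 3, and that of AT1G44160 was 0.079 without double mutant replicate 1. AT1G43760 rose by 0.39. Leaving out wild-type replicate 2 gave adjusted p = 0.085, and leaving out double mutant replicate 1 or 3 gave 0.051 or 0.13. The pseudogene AT1G45070, read by a probe set with the suffix s, rose by 0.37. Its lowest double mutant array and highest wild-type array both read 3.14. Leaving out wild-type replicate 1 or 3 gave adjusted p = 0.093 or 0.073, and leaving out double mutant replicate 2 or 3 gave 0.095 or 0.11. The pseudogene AT1G36110 rose by 0.34 (adjusted p = 0.071 without double mutant replicate 3). AT4G05170 rose by 0.34. Leaving out wild-type replicate 3 gave adjusted p = 0.062, and leaving out double mutant replicate 1 or 3 gave 0.065 or 0.077. AT3G29070 rose by 0.31. Leaving out wild-type replicate 1 gave adjusted p = 0.10, and leaving out double mutant replicate 1, 2 or 3 gave 0.055, 0.12 or 0.084. No array of these last 8 genes reached 4.

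**Figure D4:**
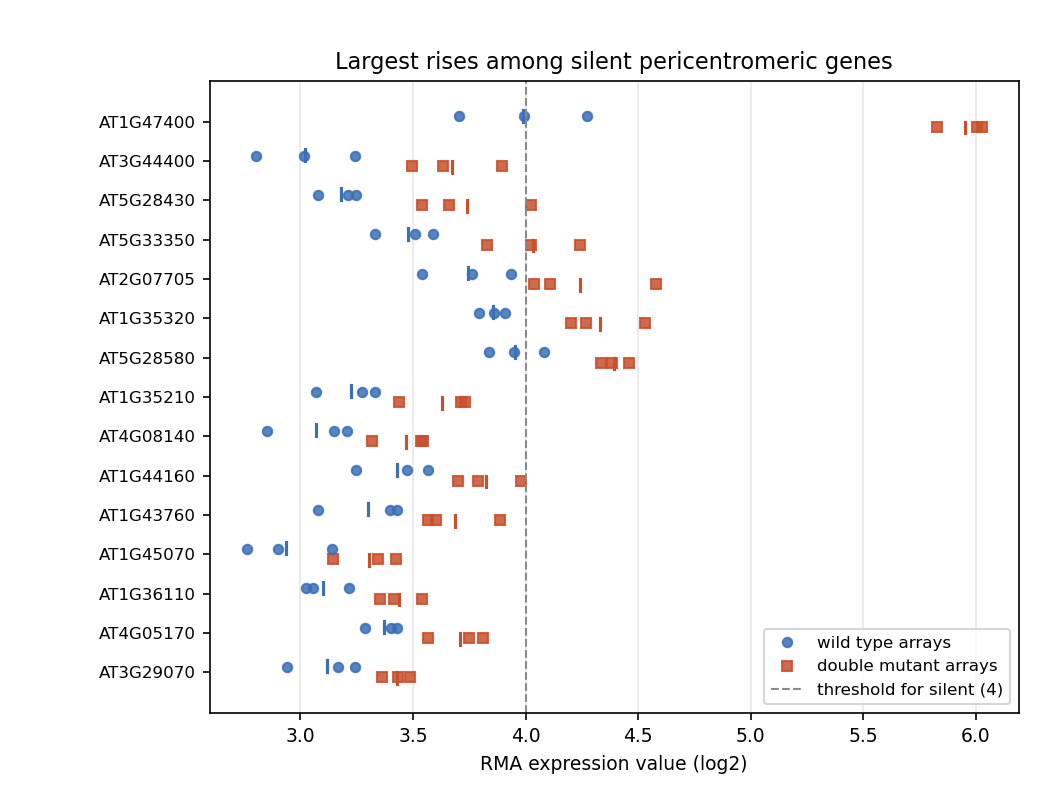
RMA expression values (x axis, log2) of the 15 largest called rises among silent pericentromeric genes; circles are the 3 wild-type arrays, squares the 3 double mutant arrays, short vertical lines the group means, and the dashed line the threshold of 4. AT1G47400 lies near 6 in the double mutant, and no other gene shown reaches 5 on any array.

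Of the 22 rises 13 were of protein-coding genes and 3 were read by probe sets with a suffix. In the double mutant 6 of the 22 averaged 4 or more, and 7 were still below the lower quartile on each double mutant array. Of the 53 falls 18 were of coding genes and 11 were read by probe sets with a suffix, and 51 were below the lower quartile on each double mutant array. Probe sets with the suffix x, which can contain probes shared with other transcripts, read 51 of the genes. None of these was called higher with limma (2 were higher at an unadjusted p under 0.05) and 5 (9.8%) were called lower. Over all 980 genes the shares were 2.24% and 5.41%, and over all probe sets 19.8% and 18.7%. The difference between these shares was not tested.

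The falls were as small as the rises and ran from -0.72 to -0.23. AT4G08380, protein coding, read 3.57, 3.52 and 3.68 in the wild type and 2.87, 2.74 and 3.00 in the double mutant, a fall of 0.72 (SE 0.10, limma adjusted p = 0.00016). The pseudogene AT5G32630 read 3.69, 3.42 and 3.39 against 2.89, 2.78 and 2.71, a fall of 0.71 (SE 0.11, adjusted p = 0.00031). In both genes all 6 arrays were below their lower quartiles, so no fold is given. The pseudogene AT1G40230 read 4.08, 4.13 and 3.51 against 3.04, 3.15 and 3.46, and its lowest wild-type array lay close to its highest double mutant array; the fall was at least 0.69 (SE 0.16, limma adjusted p = 0.0064). The pseudogene AT4G07360, read by a probe set with the suffix x, fell by at least 0.63 (SE 0.09, limma adjusted p = 0.00029). The transcribed pseudogene AT2G12050 fell by 0.55 (SE 0.11, limma adjusted p = 0.0023). Its probe set carries the suffix s, and all 6 of its arrays were below their lower quartiles. These 5 falls passed in each fit with 1 array left out. Leaving out wild-type replicate 1, 2 or 3 gave 32, 54 or 52 genes called lower, and leaving out double mutant replicate 1, 2 or 3 gave 17, 25 or 37.

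A gene symbol is carried by 23 of the silent pericentromeric genes. All 23 are protein coding, whereas 62.3% of the 980 are annotated pseudogenes, so they do not stand for the whole set. They were chosen for their symbol, after their values were seen. None was called higher with limma, also at an unadjusted p under 0.05, 1 was called lower and 22 did not pass, with differences from -0.35 to 0.16. Of all 980 silent pericentromeric genes 2.24% were called higher and 5.41% lower, and over all probe sets 19.8% and 18.7%. The 23 genes are too few to set apart from the shares of the 980. AGL79, a MADS-box transcription factor, read 3.33, 3.22 and 3.41 in the wild type and 2.93, 2.95 and 3.05 in the double mutant, a fall of 0.35 (SE 0.09, limma adjusted p = 0.012). Its arrays did not overlap. The MADS-box genes AGL89 and AGL101 differed by 0.12 and 0.020 and did not pass. The bZIP transcription factors bZIP42 and bZIP48 differed by -0.16 and -0.049, and WRKY42, of the WRKY family, by -0.071.

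ANX2, a receptor kinase that keeps the pollen tube intact during growth, read 3.39, 3.41 and 3.43 in the wild type and 3.29, 3.24 and 3.23 in the double mutant (limma adjusted p = 0.16). The 3 wild-type arrays were all above the 3 mutant ones. RALFL27, of the RALF family of signalling peptides, differed by -0.17, and CHX15, a cation/H+ exchanger, by 0.033. SAP (STERILE APETALA), which acts in flower development, read 4.10, 3.45 and 3.42 against 3.73, 3.69 and 3.94 (difference 0.13, limma adjusted p = 0.58), with wild-type replicate 1 above all the other arrays.

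FANCM, a helicase that limits meiotic crossovers, read 3.85, 3.76 and 3.98 against 3.92, 3.77 and 3.97, a difference of 0.021 (limma adjusted p = 0.89). RECQSIM, of the RecQ helicase family, differed by -0.046 and HDA7, annotated as a histone deacetylase, by -0.20. Of the other genes with a symbol, hemb2 had the largest difference upwards, 0.16 (limma adjusted p = 0.19), with 3.21, 3.29 and 3.32 against 3.40, 3.37 and 3.502. ATHSP22.0, a small heat shock protein gene, differed by 0.040, the kinase gene WNK9 by -0.0026, the ubiquitin-conjugating enzyme UBC31 by 0.072, and the beta-glucosidase BGLU24 by -0.16. CYP71B38, GH9A4, CSLC12, scpl38 and scpl44, which encode a cytochrome P450, a glycosyl hydrolase, a cellulose synthase-like protein and a pair of serine carboxypeptidase-like proteins, differed by -0.12, -0.17, -0.12, -0.11 and -0.17, and none of the 5 passed.

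**Figure D5:**
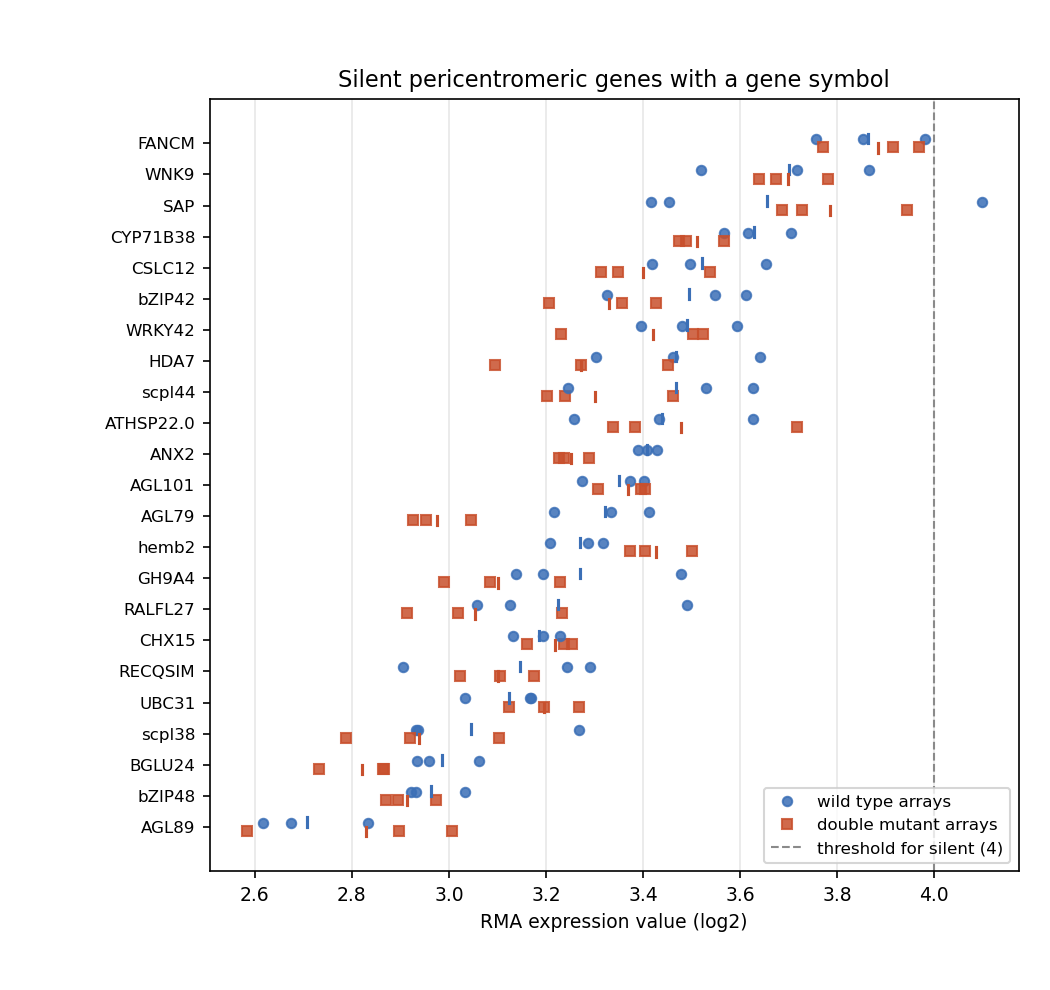
RMA expression values (x axis, log2) of the 23 silent pericentromeric genes with a gene symbol, ordered by wild-type mean; circles are the 3 wild-type arrays, squares the 3 double mutant arrays, short vertical lines the group means, and the dashed line the threshold of 4. Circles and squares of a gene lie close together or overlap; AGL79, at -0.35, is the only one called.

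Of 7 loci drawn up as known targets of silencing 3 were matched to probe sets here. None was called higher with limma, also at an unadjusted p under 0.05, 1 was called lower and 2 did not pass. Over all 13286 genes 17.8% were called higher and 17.1% lower, and 3 loci are too few to set apart from these shares. AT4G08680, a pseudogene of the chromosome 4 window with a probe set of the suffix s, read 3.32, 3.37 and 3.12 in the wild type and 3.16, 3.38 and 3.39 in the double mutant, a difference of 0.040 (limma adjusted p = 0.80). AT2G12210, a pseudogene of the chromosome 2 window, read 2.63, 2.59 and 2.74 against 2.63, 2.64 and 2.56, a difference of -0.047 (limma adjusted p = 0.71). The arrays of the genotypes overlap in both. The last, QQS, an orphan gene whose level varies with its DNA methylation, lies in the chromosome 3 window but was expressed in the wild type; it fell by at least 3.32 (limma adjusted p = 1.3e-08).

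The measured genes of chromatin silencing and of chromosome segregation gave 1 call. Of 61 genes on that list 8 were matched to probe sets here. With limma 1 rose, none fell at either an adjusted or an unadjusted p of 0.05, and 7 did not pass. Over all 13286 genes 17.8% were called higher and 17.1% lower, and 8 genes are too few to set apart from these shares. The median difference was 0.11, against -0.010 over all genes. AUR2, an Aurora kinase, rose by 0.70 (SE 0.10, limma adjusted p = 0.00025). The linker histone genes H1.1 and H1.2 differed by -0.17 and -0.091, CENH3, the histone H3 of centromeres, by 0.067, and HASPIN, a kinase for threonine 3 of histone H3, by 0.17. AUR1 and AUR3 differed by 0.16 and -0.062, and DME, a glycosylase of active DNA demethylation, by 0.14. The other 53 genes on the list were not analysed here.

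Markers of organs other than leaves gave few values. None of 10 seed and 8 flower organ markers was matched to a probe set here, where 8730 probe sets are unnamed. Of 11 pollen markers 1 was measured: MGH3, a histone H3 of sperm cells, read 3.74 ± 0.24 and 3.55 ± 0.03 (SD, n = 3; limma adjusted p = 0.25). Of 4 tapetum markers 2 were measured, of which AT5G07230 fell from 4.57 ± 0.34 to 3.60 ± 0.10 (SD, n = 3; limma adjusted p = 0.00042) and AMS differed by -0.045. Summed on the linear scale the tapetum markers gave 30.9 to 41.4 in wild-type arrays, against 22.9 to 26.0 in mutant arrays. Of 12 root markers 3 were measured: the root beta-glucosidase PYK10 rose by 0.52 (SE 0.10), with limma adjusted p = 0.0015, while the root hair expansins EXPA7 and EXPA18 differed by -0.16 and 0.17 and did not pass. The sum of the root markers was 2300 to 2780 in wild-type arrays, against 3590 to 3750 in mutant arrays, and is almost all PYK10. The part of these markers in the results was not tested.

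The silent pericentromeric genes also varied little between arrays. The SD of the difference between 2 arrays, taken over the 980 genes, was 0.15 to 0.20 for arrays of the same genotype, against 0.21 to 0.24 for arrays of different genotypes. Over the silent arm genes it was 0.16 to 0.22 and 0.32 to 0.35. Of the 508 window genes that were not silent 73 (14.4%) were called higher and 123 (24.2%) lower. Over all 13286 genes the shares were 17.8% and 17.1%, and over arm genes that were not silent 23.8% and 23.6%. The differences between these shares were not tested.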

How the data were processed

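Transcript levels were measured on 6 Affymetrix arrays, 3 per genotype, grouped by the sample titles. The authors deposited log2 expression values per probe set, and the submitters' processing notes name RMA, limma and R 2.9.0. RMA subtracts a modelled background, gives all arrays the same distribution and merges each set's probes; changes near the background come out compressed. The authors' deposited table also gives log2 differences, p-values, and moderated t and log odds scores; it was used only as an alternative.

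The 64 control probe sets were left out, which leaves 22746. Of these 13513 name 1 gene, of which 13436 matched a RefSeq gene (TAIR10.1 table, used for names, annotation type and locus order), giving 13286 genes; 503 name several genes and 8730 are unnamed here. Per gene the probe set with the highest mean was kept, a choice that touched 3 of the genes studied. A two-sided limma fit by genotype alone (version 3.58.1, in R 4.3.3, with eBayes moderation) took in all probe sets, and its p-values were adjusted by Benjamini-Hochberg over the 22746 and called at 0.05. No filter on low values was applied. The fit was tested on simulated data.

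The genes, lists and tests were chosen with earlier results of these data known. Genes named by rule are the 15 largest called rises and 5 largest called falls with arrays apart, and the largest rise per window. The rule also took 3 genes on each side of the threshold, 3 silent arm genes, up to 3 members of each list and MLK1. The other measured list members, the neighbouring genes and the genes with a symbol were named outside this rule. Alternatives varied the threshold, the arrays that choose silent genes, the probe set, the windows, a low-signal filter, centring, the variance model, a replicate block, the source of the calls and each array left out. The number of arrays limits the precision. Plots used Python 3.11.15 and matplotlib 3.10.9.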

Additional observations from a re-analysis of the deposited data

Results flagged for a closer look

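The signal at the array's 25S rRNA control, a probe set outside the genes tested, differed by 6.26 on the log2 scale. Wild-type arrays averaged 5.93 ± 0.76 and double mutant arrays 12.20 ± 0.12 (SD, n = 3). It was looked at again because this signal lies above the wild-type level in data that none of the comparisons uses. Its part in the results on the silent genes was not tested.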

How the results depend on the processing

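Of the silent pericentromeric genes 22 were called higher and 53 lower. The counts changed by more than 1.5 times with a silent threshold of 3.5 (14 and 23), with silent genes chosen on wild-type array 3 (12 higher) or array 1 alone (29 lower), with the filter that drops the dimmest 25% of probe sets (8 and 2, of the 62 genes it left), with arrays centred on their medians (14 and 81), with a difference of at least 1 (1 and 0; also 0 falls at an unadjusted limma p under 0.05) and, added after seeing the data, with protein-coding genes only (13 and 18). Smaller sets of genes were counted under the first, the filter and the last of these. At the threshold of 3.5 the share called lower also changed, to 3.01% against 5.41%. A difference of at least 1 is a stricter rule, and the choice on 1 wild-type array left that array out of the fit. For centring the cause was not tested. Leaving out 1 array gave 9 to 24 higher and 17 to 54 lower. The median difference, -0.027, was 0.028 with the filter, -0.0472 to -0.0048 with 1 array left out and below 0 under the other alternatives. The share called higher minus that of silent arm genes, -6.11 percentage points, was -4.57 and -7.90 with thresholds of 3.5 and 4.5, -4.92 with centring, -0.974 for differences of at least 1, and -6.18 to -4.44 with 1 array left out, and below 0 under the others. The filter gave -17.4, but it averages over both genotypes and so keeps silent genes partly through their double mutant level, so none of the values under the filter is used as support. Of the 21 called genes followed singly, 4 remained with the filter, which drops most of them, 19 with centring, which lost AT1G43760 and AT3G29070, and 13 to 20 with 1 array left out. None changed direction. Arrays sharing a replicate number did not deviate together (correlations of -0.076, -0.10 and -0.16), so the numbers were not taken to pair the arrays. With the replicate block 21 genes were called higher and 41 lower, a difference between shares of -5.28 points, and all 21 followed singly kept their call. The authors' deposited table calls 22 higher and 52 lower. Most of these genes sit at the background signal, where RMA compresses changes, so a small rise may not be detectable.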

Other observations

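Probe sets that name several genes were left out of all counts above. Among them 17 name only genes of the pericentromeric windows and averaged under 4 in the wild type. With limma 1 of these was called higher and 3 lower, and their differences ran from -0.38 to 0.55 with a median of -0.084.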
